A study of Mus musculus with 40 samples.

Results

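The serum amyloid A genes of the mouse, Saa1, Saa2, Saa3, and Saa4, were followed in the livers of mice that lack Nampt in hepatocytes (HNKO, hepatocyte-specific Nampt knockout) and of WT mice. They are 4 of the 55487 genes in the count table, and all 4 were among the 20297 genes that passed the filter on low counts. The set was chosen by the log2 CPM differences between HNKO and WT at each day, already known, because Saa2 had one of the largest rises and shares sequence with Saa1. Those differences are therefore given as values with standard errors and without a test. The 40 libraries, each from the liver of 1 female mouse, came from HNKO mice (Nampt fl/fl with Alb-Cre+/-, labelled KO) and floxed WT littermates without Cre, on a C57BL/6JBomTac background and about 9 weeks old at the start. The Alb promoter drives Cre in hepatocytes, and Nampt was not measured by cell type here. All mice received a purified diet (PD), and livers were taken on day 3 (5 WT, 5 HNKO), 6 (4 WT, 5 HNKO), 12 (5 WT, 6 HNKO), or 21 (5 WT, 5 HNKO) of the diet. The sample labels give these days as age, and the methods of the study give them as days of PD feeding, which is used here. Of the 5 HNKO libraries of day 21, 2 (numbers 17 and 18) were labelled as failing quality control and are left out unless named, which leaves 38 libraries.

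Serum amyloid A proteins are small apolipoproteins of HDL. Saa1 and Saa2 are the major acute-phase forms that hepatocytes secrete when IL-1, IL-6, and TNF act on the liver, through NF-kB, STAT3, and C/EBP factors. Saa3 is an inducible form that macrophages, adipocytes, and other cells also make, and Saa4 is the constitutive form, which is little changed in the acute-phase response. Persistently high Saa1 and Saa2 can lead to amyloid deposits in mice.

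The genes lie together on chromosome 7 (GRCm38; gene models of GENCODE M21). Saa3 occupies chr7:46711998-46715700, Saa4 chr7:46727998-46732603, and Saa1 chr7:46740497-46742980, all on the minus strand, whereas Saa2 lies at chr7:46751790-46754313 on the plus strand. They carry the identifiers ENSMUSG00000040026.8, ENSMUSG00000040017.8, ENSMUSG00000074115.5, and ENSMUSG00000057465.5 in the same order, and none overlaps another annotated gene. RefSeq lists Saa2 among the older names of Saa1 and Saa1 among those of Saa2, so the identifiers and not the symbols fix which row is meant. The coding sequences of Saa1 and Saa2 have 366 bases each and differ at 18 of them, which makes them 95.1% identical. That of Saa1 is 74.3% identical to Saa3 and 64.4% identical to Saa4. Bases 61 to 260 hold 15 of the 18 differences. They are shown for both genes, since these letters are what separates the reads of one gene from those of the other, with the differing bases in capitals (spliced sequence, 5′ to 3′, GRCm38).
Saa1: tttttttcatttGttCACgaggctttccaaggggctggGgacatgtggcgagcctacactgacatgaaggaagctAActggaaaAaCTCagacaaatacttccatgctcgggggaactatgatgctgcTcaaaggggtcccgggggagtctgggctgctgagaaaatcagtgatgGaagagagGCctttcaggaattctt
Saa2: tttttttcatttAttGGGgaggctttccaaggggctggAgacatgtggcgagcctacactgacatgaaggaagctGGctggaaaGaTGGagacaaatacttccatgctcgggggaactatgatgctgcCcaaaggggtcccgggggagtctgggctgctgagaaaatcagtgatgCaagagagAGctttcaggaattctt
The longest stretch without a difference runs over 73 bases, from base 286 to base 358, and is longer than the 51-base reads. Over all annotated transcripts, 30.9% of the 51-base stretches of Saa1 and 29.5% of those of Saa2 also occur in another gene, in practice the other of the pair. In the main protein-coding transcripts these shares were 14.3% and 12.9%, against 1.58% for Saa3 and 1.08% for Saa4. How reads that fit several genes were counted is not given in the sources used here, so the split of counts between Saa1 and Saa2 is less certain than their sum.

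The 4 promoters were compared because Saa1 and Saa2 moved together whereas Saa4 did not. They are shown from 250 to 51 bases before the start (RefSeq, GRCm38.p6, in the direction of the gene), with motif matches in capitals.
Saa1 (chr7:46743031-46743230, minus strand): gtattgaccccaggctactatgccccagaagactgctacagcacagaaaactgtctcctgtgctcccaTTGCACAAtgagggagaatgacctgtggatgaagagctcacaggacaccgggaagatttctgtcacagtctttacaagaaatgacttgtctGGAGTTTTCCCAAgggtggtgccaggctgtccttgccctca
Saa2 (chr7:46751583-46751782, plus strand): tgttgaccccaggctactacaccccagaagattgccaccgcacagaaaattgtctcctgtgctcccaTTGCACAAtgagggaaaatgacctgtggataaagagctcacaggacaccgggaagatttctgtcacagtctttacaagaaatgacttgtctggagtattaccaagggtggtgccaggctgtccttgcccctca
Saa3 (chr7:46715727-46715926, minus strand): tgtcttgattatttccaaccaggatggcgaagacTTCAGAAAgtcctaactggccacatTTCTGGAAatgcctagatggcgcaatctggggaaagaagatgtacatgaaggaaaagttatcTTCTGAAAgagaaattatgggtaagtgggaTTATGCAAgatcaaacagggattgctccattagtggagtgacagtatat
Saa4 (chr7:46732654-46732853, minus strand): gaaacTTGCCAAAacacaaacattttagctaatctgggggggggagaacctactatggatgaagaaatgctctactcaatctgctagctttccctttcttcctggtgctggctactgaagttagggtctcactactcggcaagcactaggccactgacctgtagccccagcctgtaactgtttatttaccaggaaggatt
Over these 200 bases Saa1 and Saa2 were 93.5% identical, and the other pairs were 39.8% to 46.8% identical. Motifs were searched on both strands from 250 bases before to 50 after the start. The letters TTNNGNAA of C/EBP sites occurred in all 4 promoters, at -182 and -86 in Saa1, -183 in Saa2, -216, -191, -129, and -99 in Saa3, and -245 and -52 in Saa4, and they also occur in 40.7% of all 32851 promoters. The match at -52 runs past the end of the stretch shown. The NF-kB consensus matched only the Saa1 promoter, at -91, where it overlaps the C/EBP match at -86, and it occurs in 11.2% of all promoters. The letters TTCNNNGAA of STAT sites (8.30% of promoters) and TATAAA (13.6%) were not found in these windows. These are matches of letters and were not tested for binding.

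The 38 libraries held 16151037 to 64181492 counts on genes (median 26466478.5). Nampt was lower in HNKO than in WT after 3 days (log2 fold change -0.93 ± 0.23 SE, adjusted p = 0.0193), 6 days (-0.90 ± 0.24, 0.0128), and 12 days (-0.82 ± 0.22, 0.0208). After 21 days it did not pass the test (-0.69 ± 0.27, 0.161), although all 3 HNKO libraries were below the WT libraries. All 5 HNKO libraries of day 3 and all 6 of day 12 were below the WT libraries as well. At day 6, 4 of 5 were, and HNKO library 7 (6.36 log2 CPM) stood above WT libraries 27 and 28 (6.00 and 5.99). The 6 hepatocyte markers, among them Alb and Ttr, were abundant in all 38 libraries. In whole liver, fewer cells of a type and less RNA per cell cannot be told apart.

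Saa1 and Saa2 were higher in HNKO livers from the first time point, peaked at day 6, and were closer to WT by day 21. On the log2 CPM scale (the log2 of counts scaled to the size of each library), Saa1 at day 3 stood at 4.68, 4.66, 4.15, 4.82, and 4.09 in the WT libraries and at 6.03, 8.39, 6.19, 6.96, and 6.25 in the HNKO libraries. All 5 HNKO values lay above all WT values, and library 3 (8.39) stood highest. At day 6 the WT libraries were at 4.90, 4.13, 4.82, and 3.71 and the HNKO libraries at 9.89, 10.72, 9.91, 9.38, and 10.39. The lowest HNKO mouse thus exceeded the highest WT mouse by more than 4 log2 units. At day 12 the WT values were 4.14, 3.87, 4.04, 3.31, and 3.66, against 8.25, 8.37, 8.04, 4.45, 4.49, and 7.70 in HNKO. Here 4 HNKO mice were far above WT and libraries 32 and 35 only just above. At day 21 the WT libraries lay at 4.38, 3.92, 4.96, 3.44, and 3.78 and the 3 HNKO libraries at 5.75, 4.85, and 5.08, so the groups overlapped.

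**Figure D1:**
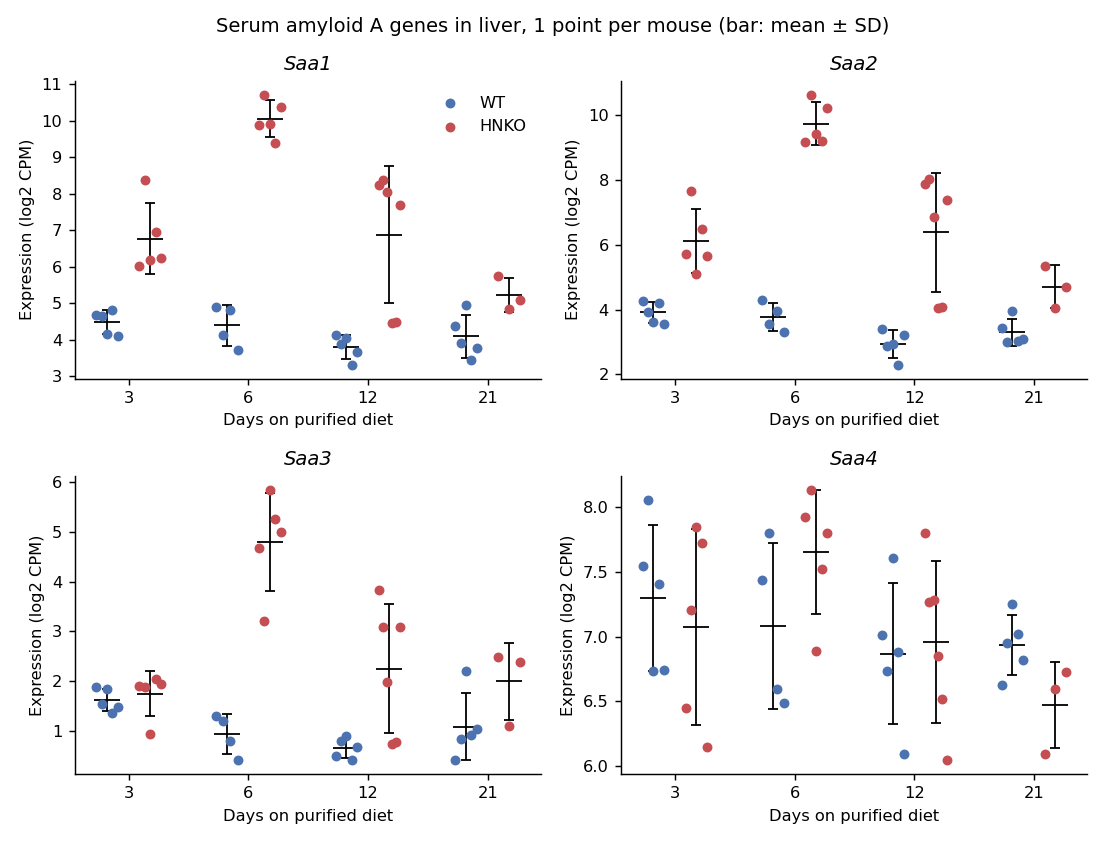
Expression of Saa1, Saa2, Saa3, and Saa4 (y axis, log2 CPM) by days on purified diet (x axis) in WT (blue) and HNKO (red) livers, 1 point per mouse, with bars for mean ± SD of each group of 3 to 6 mice. The HNKO points of Saa1, Saa2, and Saa3 are separate from WT at day 6, the 6 HNKO points of day 12 fall apart into high and low values, and the points of Saa4 overlap between genotypes at each day.

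The fitted log2 fold changes of Saa1 between HNKO and WT were 2.57 ± 0.53 (SE), 5.66 ± 0.67, 3.76 ± 0.55, and 1.08 ± 0.57 after 3, 6, 12, and 21 days. The largest of these corresponds to a 50.6-fold higher level. With only the libraries of each day in the fit, the SEs were 0.43, 0.39, 0.69, and 0.32. At day 12 the HNKO libraries had an SD of 1.88 log2 units. Without HNKO library 3, the day 3 value was 1.90. Of all genes tested, 2.31%, 8.08%, 2.65%, and 7.25% had every HNKO library above every WT library on the 4 days in turn, and Saa1 did so on the first 3. Since this contrast chose the genes, the shares only give the background.

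Saa2 followed the same course at a slightly lower level. It measured 4.27, 3.91, 3.62, 4.20, and 3.55 log2 CPM in WT at day 3 and 5.70, 7.65, 5.10, 6.48, and 5.66 in HNKO. At day 6 it measured 4.30, 3.54, 3.95, and 3.30 in WT and 9.16, 10.62, 9.41, 9.21, and 10.21 in HNKO, and library 7 was highest for both genes. That library also had the highest Nampt of the HNKO libraries of the day (6.36 log2 CPM). At day 12 the WT libraries stood at 3.39, 2.86, 2.94, 2.29, and 3.20, and the HNKO libraries at 7.87, 8.03, 6.84, 4.05, 4.09, and 7.36. The low values were again those of libraries 32 and 35. At day 21 WT measured 3.42, 3.00, 3.97, 3.02, and 3.09 and HNKO 5.36, 4.04, and 4.71, so Saa2, unlike Saa1, had all HNKO libraries above WT at each of the 4 days. Its log2 fold changes were 2.48 ± 0.53, 6.03 ± 0.69, 4.10 ± 0.56, and 1.45 ± 0.58 at days 3, 6, 12, and 21, and the day 6 value corresponds to 65.5-fold. With only the libraries of each day in the fit, the SEs were 0.42, 0.43, 0.71, and 0.30. Without HNKO library 3, the day 3 value was 1.88. From the highest log2 fold change down, Saa2 ranked 14 and Saa1 ranked 21 of the 20297 genes at day 6.

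**Figure D2:**
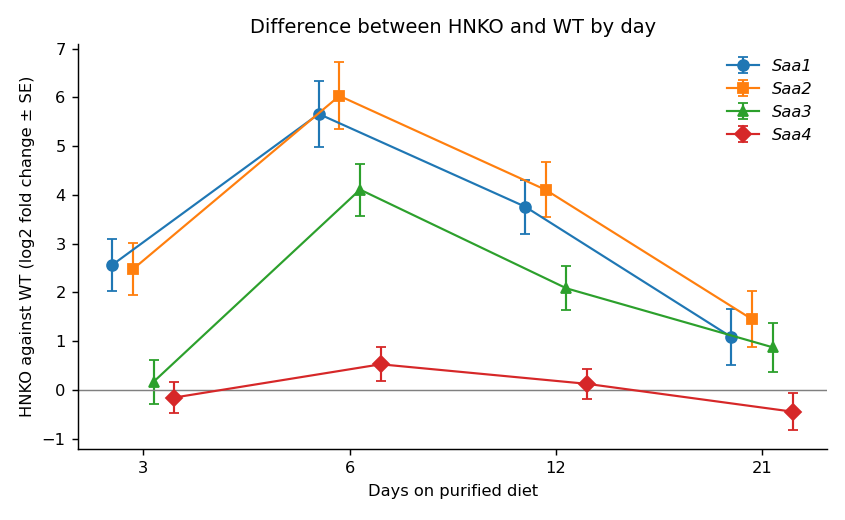
Fitted log2 fold change of HNKO against WT (y axis, bars are SE) for the 4 genes at 3, 6, 12, and 21 days on purified diet (x axis), from 3 to 6 mice per group. Saa2 and Saa1 reach 6.03 and 5.66 at day 6, Saa3 reaches 4.11, and the Saa4 values lie between -0.45 and 0.52.

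Saa3 differed from this pair in its start. At day 3 its WT values were 1.88, 1.53, 1.84, 1.36, and 1.48 log2 CPM and its HNKO values 1.91, 1.88, 0.94, 2.04, and 1.95. The group means differed by less than the spread, with a log2 fold change of 0.17 ± 0.45. At day 6 WT measured 1.30, 1.19, 0.79, and 0.42 and HNKO 4.67, 3.21, 5.85, 5.25, and 4.99, with no overlap and a log2 fold change of 4.11 ± 0.53 (17.3-fold). Library 7, the highest for Saa1 and Saa2, was the lowest HNKO library for Saa3 at this day. At day 12 WT measured 0.48, 0.78, 0.88, 0.40, and 0.67 and HNKO 3.82, 3.09, 1.98, 0.72, 0.77, and 3.09, and the log2 fold change was 2.08 ± 0.45. Libraries 32 and 35 lay within the WT range. At day 21 it was 0.87 ± 0.50, from 0.42, 0.84, 2.21, 0.91, and 1.02 in WT and 2.49, 1.10, and 2.38 in HNKO, and it was 1.34 without WT library 21. That library, the deepest of all, was the highest WT library for Saa1, Saa2, Saa3, and Saa4 at this day.

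Saa4, the constitutive form, had the smallest differences of the 4 genes at days 6, 12, and 21, and WT and HNKO libraries overlapped on each day. After 3 days the WT libraries measured 7.54, 8.05, 6.73, 7.41, and 6.74 log2 CPM and the HNKO libraries 6.45, 7.21, 7.85, 7.73, and 6.15, with a log2 fold change of -0.16 ± 0.33. At day 6 the ranges were 6.49 to 7.80 and 6.89 to 8.13, and the value was 0.52 ± 0.35. At day 12 the value was 0.12 ± 0.31. At day 21 the WT libraries measured 6.63, 6.95, 7.25, 7.02, and 6.82 and the HNKO libraries 6.10, 6.59, and 6.73, with a log2 fold change of -0.45 ± 0.38. That difference of means, 6.47 ± 0.33 against 6.93 ± 0.23 (SD), was larger than either SD, and its SE was 0.16 with only the libraries of that day in the fit (-0.43). With a covariate for the series of library numbers, described below, the log2 fold change was -0.11 ± 0.32. HNKO libraries above all WT libraries numbered 0 of 5, 2 of 5, 1 of 6, and 0 of 3 on the 4 days, and those below all WT libraries numbered 2, 0, 1, and 2. The day 6 value was 0.80 without WT library 10, and the day 21 value was -0.27 without HNKO library 37. The sign at day 3 turned positive without WT library 5 (0.071) or HNKO library 23 (0.017), and that at day 12 turned negative without HNKO library 11 (-0.081) or WT library 34 (-0.031).

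The labels give library numbers and name no batch or series. The numbers run through the days in order from 1 to 21 and again from 22 to 41. They were split here into a first series (1 to 21) and a second series (22 to 41) for this reason. The first series had the higher group mean in 7 of 7 groups for Saa1, Saa2, and Saa4. Within series, the HNKO mean of Saa1 exceeded the WT mean in 7 of 7 comparisons, by 1.62 to 5.79 log2 units, and that of Saa2 by 1.64 to 5.99. For Saa3 the HNKO mean was higher in 6 of 7 (-0.13 to 4.76), and for Saa4 in 3 of 7. At day 12 the Saa2 difference was 4.52 in the first series and 2.42 in the second, which holds libraries 32 and 35. The used HNKO libraries of day 21 were all in the second series, where the differences of Saa1 and Saa2 from the 2 WT libraries were 1.62 and 1.64, and the first series gave no value for that day.

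Libraries 32 and 35 were also the lowest HNKO libraries of day 12 for Orm2 and Lcn2. Orm2 was itself found by its likeness to Saa1 over these libraries, and both were named after their values were seen, so this is a description. Orm2, an acute-phase lipid carrier, measured 6.72, 6.52, 7.36, 3.45, 3.95, and 6.12 log2 CPM in HNKO libraries 11, 12, 13, 32, 35, and 36. Lcn2, a siderophore-binding acute-phase protein, measured 7.81, 7.92, 8.35, 4.44, 5.14, and 7.85 in the same order. Nampt did not separate them, at 5.77 and 4.92 in libraries 32 and 35 and 5.30 to 5.73 in the other 4. The summed level of the 5 tested neutrophil markers was 3.63 and 4.26 CPM in libraries 32 and 35. In the other 4 it was 6.61 to 17.9 CPM. The other marker sums did not set both libraries apart. They were 424 and 626 against 542 to 861 CPM for macrophages and 103802 and 102391 against 86618 to 111512 CPM for hepatocytes. For ductal markers they were 14.7 and 61.8 against 11.6 to 16.7 CPM, and for adipocyte markers 29.7 and 3.49 against 2.59 to 43.2 CPM. The part of these cells in the differences was not tested.

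The course over days within one genotype is another contrast than the one that chose the genes, although the libraries are the same, so these tests are not independent of the choice. In WT livers, 0 of the 4 genes had a day effect (edgeR's quasi-likelihood F test over the 4 day means, adjusted p = 0.757, 0.535, 0.454, and 0.705 for Saa1 to Saa4), and 0 passed at an unadjusted p under 0.05 or with DESeq2. Of all genes tested, 5.84% had such an effect. With only the WT libraries in the fit, Saa2 passed (adjusted p = 0.0454), with WT means of 3.91, 3.77, 2.94, and 3.30 log2 CPM at days 3, 6, 12, and 21.

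In HNKO livers, Saa1, Saa2, and Saa3 had a day effect (adjusted p = 7.27e-06, 2.92e-06, and 6.53e-06), whereas Saa4 did not pass (0.146), against 7.9% of all genes tested. The choice of the genes used the HNKO values of each day, so these p-values only describe the course and are no separate support. DESeq2 also called 3 of 4, and 4 of 4 had an unadjusted p under 0.05 (0.0244 for Saa4). In the fit, Saa1 rose by 3.06 log2 units from day 3 to day 6 and then fell by 2.55 to day 12 and by 4.85 to day 21. Saa2 rose by 3.43 and fell by 2.77 and 5.05 from its day 6 level. Saa3 rose by 3.25 and fell by 2.35 and 2.92, so that its day 21 level was 0.34 above that of day 3, whereas Saa1 and Saa2 were 1.79 and 1.62 below theirs. The fitted change of Saa4 was 0.49 from day 3 to day 6, -0.64 from day 6 to day 12, and -1.21 from day 6 to day 21, with HNKO means of 7.08, 7.65, 6.96, and 6.47 log2 CPM.

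Levels of different genes were compared per length, as FPKM, fragments scaled to library size and to the length of the main protein-coding transcript. In WT livers the order was the same at the 4 days, with Saa4 highest (medians 56.4 to 81.0 FPKM), then Saa1 (23.9 to 41.3) and Saa2 (12.6 to 24.7), and Saa3 lowest (2.74 to 5.08). Within libraries, Saa1 was above Saa2 in 38 of 38 and Saa2 above Saa3 in 38 of 38, and Saa4 was above Saa1 in 18 of 19 WT libraries. Between mice, neighbors in this order were not always separate. The ranges of Saa1 and Saa2 over WT mice overlapped on all 4 days and those of Saa4 and Saa1 at days 6 and 21, whereas Saa3 lay below Saa2 throughout. At day 6 in HNKO livers Saa1 (1581 FPKM) and Saa2 (1126) were above Saa4 (106), and Saa3 (57.3) remained lowest. The ranges of Saa1, 1097 to 2767, and of Saa2, 942 to 2602, overlapped, as did those of Saa4, 56.6 to 134, and Saa3, 16.5 to 104. At day 3 the HNKO medians were 125 for Saa1, 85.9 for Saa2, and 70.5 for Saa4, and at day 12 they were 386, 230, and 64.4. Within HNKO libraries, Saa1 was above Saa4 in 5 of 5 at day 3 and 4 of 6 at day 12. Saa2 was above Saa4 in 4 of 5 and 4 of 6, with libraries 32 and 35 the other way at day 12 for both genes. At day 21 the HNKO medians were 55.6 for Saa1, 46.1 for Saa4, 43.0 for Saa2, and 9.26 for Saa3. The ranges of the first 3 overlapped between mice, and Saa1 was above Saa4 in 3 of 3 libraries and Saa2 above Saa4 in 1 of 3. The lengths matter here. With all annotated exons joined, which adds retained introns of Saa1 and Saa2, the order turned, with Saa4 above both Saa1 and Saa2 at days 3 and 21 in HNKO (medians 70.5 against 30.7 and 20.7 FPKM, and 46.1 against 13.7 and 10.3), and was above Saa2 but below Saa1 at day 12 (64.4 against 55.5 and 94.9). The order at day 6 did not depend on this choice.

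**Figure D3:**
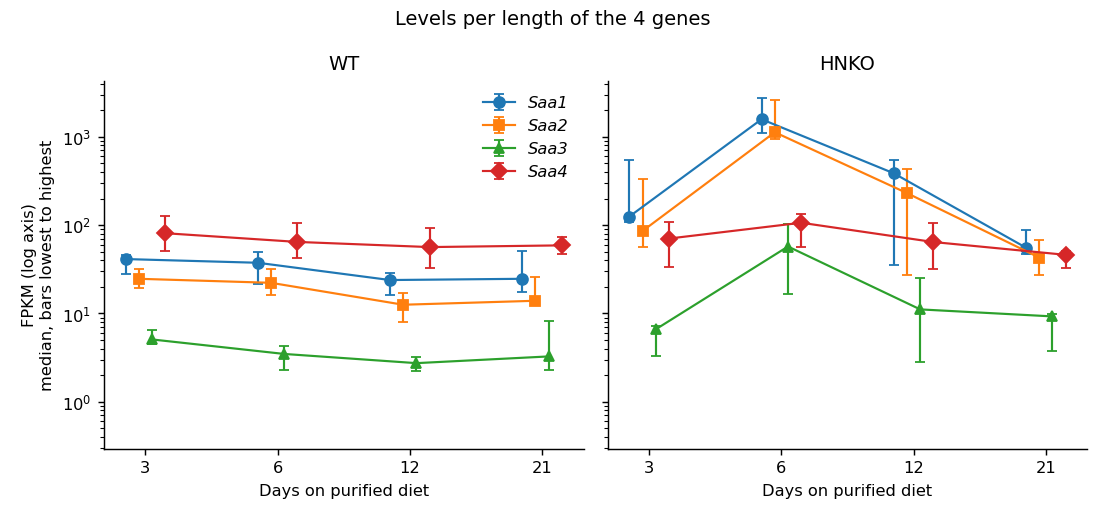
FPKM on a log axis (y axis) by days on purified diet (x axis) for the 4 genes in WT (left) and HNKO (right) livers, points are medians and bars run from the lowest to the highest of 3 to 6 mice. Saa4 is highest in WT at the 4 days, whereas Saa1 and Saa2 are highest in HNKO at day 6.

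Together, Saa1 and Saa2 summed to 1259 to 3262 CPM in HNKO livers at day 6 (scaled to TMM library sizes) and 22.8 to 49.4 CPM in WT livers of that day. The Saa2 share of their joint counts varied little against this. It was 30.4% to 48.3% over the 38 libraries (median 40.3%), while the sum itself ranged from 14.6 to 3262 CPM. In HNKO at day 6 the share was 37.5% to 48.3%, and in WT at day 6 it was 35.2% to 42.8%, so the ranges overlapped, with 3 of the 5 HNKO libraries above every WT library. At day 12, 5 of the 6 HNKO libraries (43.1% to 44.2%) were above the WT range of 31.7% to 42.1%, and library 13, at 30.4%, was below it. The mean share was 39.1% ± 4.73 in HNKO and 40.2% ± 2.07 in WT at day 3, 44.2% ± 4.60 and 39.4% ± 3.12 at day 6, and 41.4% ± 5.41 and 35.4% ± 4.31 at day 12 (SD, n = 4 to 6). At day 21 the share was 36.3% to 43.5% (median 43.1%) in the 3 HNKO libraries and 33.4% to 42.7% (median 34.5%) in the 5 WT libraries. These differences in share were not tested. Single libraries differed by more than counting error. The share was 48.3% in HNKO library 7 (95% interval 48.0% to 48.7%, Clopper-Pearson) and 41.5% in HNKO library 29 (41.1% to 41.8%) of the same day. These intervals cover counting error only and not the uncertain assignment of reads that fit both genes.

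**Figure D4:**
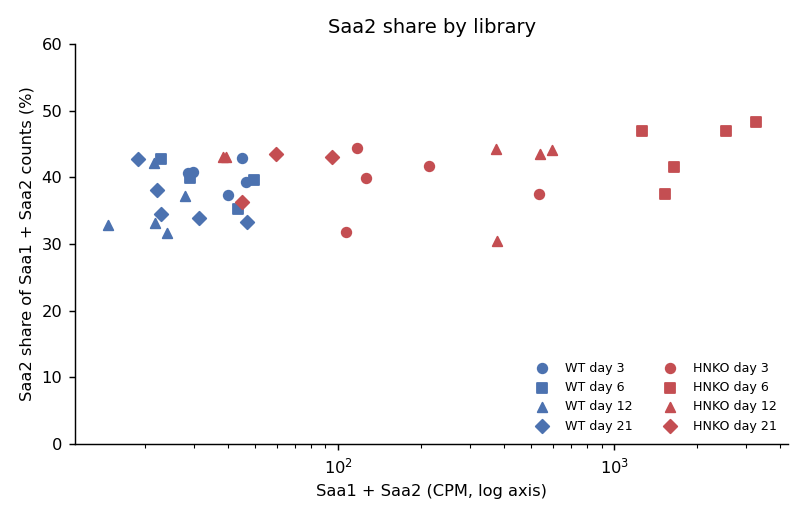
Saa2 share of the joint counts of Saa1 and Saa2 (y axis, percent, from 0) against their summed level (x axis, CPM, log axis) in the 38 libraries, by genotype (color) and day (shape). The share stays between 30.4% and 48.3% while the sum runs from 14.6 to 3262 CPM.

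Within groups, mice with more Saa1 also had more Saa2. Over deviations from the group means, r was 0.89 (Spearman's rho 0.90) in the 19 WT libraries, with adjusted p = 0.0003 (rho 0.00024) from 100000 permutations within groups, two-sided, adjusted over 6 pairs. The raw p was 5e-05 for r and 4e-05 for rho. In the 13 HNKO libraries of days 3, 6, and 21, r was 0.94 (rho 0.86) with permutation p = 0.00011 (adjusted 0.00066; 0.00072 and 0.00432 for rho). Without the 2 libraries farthest from the median, r was 0.84 and 0.87. With the means of each group and library series removed, it was 0.89 and 0.95. This pair shares sequence, as shown above, and the part of shared reads in r was not tested. The HNKO libraries of day 12 are left out because they fall apart into high and low values. The other 5 pairs did not pass in either set. In WT their r was 0.24 to 0.49 (raw permutation p 0.0447 to 0.362, adjusted 0.123 to 0.362) and their rho 0.33 to 0.43 (permutation p 0.0824 to 0.243, adjusted 0.157 to 0.243). In HNKO it was -0.56 for Saa3 and Saa4 (permutation p = 0.0293, adjusted 0.0880), with rho -0.50 (permutation p = 0.0560, adjusted 0.168) and r -0.60 without the 2 extreme libraries. For the rest, r was -0.064 to 0.25 (permutation p 0.601 to 0.967, adjusted 0.967) and rho was -0.016 to 0.27 (permutation p 0.444 to 0.982, adjusted 0.864 to 0.982). The r of Saa1 with Saa3 in WT fell from 0.48 to 0.065 without the 2 extreme libraries. In HNKO it moved from -0.064 to 0.32, and that of Saa2 with Saa3 from 0.013 to 0.54.

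Among genes outside the family, those whose log2 CPM over the 38 libraries was most like that of Saa1 were Orm2 (Pearson r = 0.94), Lrg1 (0.93), the hemoglobin-binding haptoglobin Hp (0.93), and the heme carrier Hpx (0.92), and the same 4 were nearest to Saa2 (0.92 to 0.94). Saa1 and Saa2 were closer to each other (0.99), and Saa3 had r = 0.87 with Saa1 and 0.89 with Saa2. Outside the family, Saa3 was nearest to Csf3r, the receptor of the granulocyte growth factor G-CSF and a neutrophil marker (0.92), then to Slfn4 (0.90), the metalloreductase Steap4 (0.89), and Nfam1 (0.88). For Saa4 they were Apol9a (0.83), the C1 inhibitor gene Serping1 (0.83), Cpn2 (0.83), and Slc9a3r1 (0.82). The likeness of the Saa1, Saa2, and Saa3 neighbors includes the difference between the groups. These are descriptions over libraries that share depth and scaling.

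The upstream pathway was followed in 24 genes of the IL-6, IL-1, and TNF routes to the acute-phase response, all of them tested. At day 6, 13 were higher in HNKO and 0 lower, where 8.42% of all genes tested were higher and 4.37% lower, and the median log2 fold change was 0.39 against -0.014 over all genes. An unadjusted p under 0.05 and DESeq2 also gave 0 lower genes. Il1r1, the IL-1 receptor, had the smallest p. It rose from 4.82 to 5.38 log2 CPM in WT to 6.15 to 6.68 in HNKO (log2 fold change 1.29 ± 0.17, adjusted p = 8.67e-06). Stat3, the transcription factor of IL-6 signaling, rose by 0.77 ± 0.16 (0.00144) and Socs3, its feedback inhibitor and target, by 2.19 ± 0.47 (0.002). Tnf rose by 2.37 ± 0.47 (0.00104) from -1.85 to -1.26 log2 CPM in WT to -0.70 to 1.28 in HNKO. The IL-6 gene itself had log2 fold changes of 0.32 ± 0.61 at day 6 (adjusted p = 0.796) and 2.50 ± 0.71 at day 21 (0.0449), and Il1b had 1.04 ± 0.46 at day 6 (0.141). The C/EBP gene Cebpb had 0.15 ± 0.28 at day 6 (0.790).

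On each of the other days, 2 of the 24 genes were higher and 0 lower. After 3 days these were Osmr (0.79 ± 0.20, adjusted p = 0.0223) and Lif, after 12 days Socs3 (2.13 ± 0.42, 0.00341) and Osmr, and after 21 days Lif (2.64 ± 0.75, 0.0432) and Il6. The background of higher genes was 2.95%, 4.56%, and 2.21%, and that of lower genes 1.71%, 3.27%, and 0.916%. At an unadjusted p under 0.05, 1, 0, and 0 genes were lower, and DESeq2 called the same numbers. Osmr encodes the oncostatin M receptor, and Lif an IL-6 family cytokine. The counts of these days rested on single libraries. The day 3 count was 0 without HNKO library 2 or 23 or WT library 5 and 1 without HNKO library 3 or WT library 24 or 25. The day 12 count was 1 without HNKO library 12 or 13. The day 21 count was 0 without HNKO library 37 or WT library 19, 20, 21, or 41, and 1 without WT library 39. The day 6 count was 8 without WT library 8, and 7 when only the libraries of that day were fitted.

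**Figure D5:**
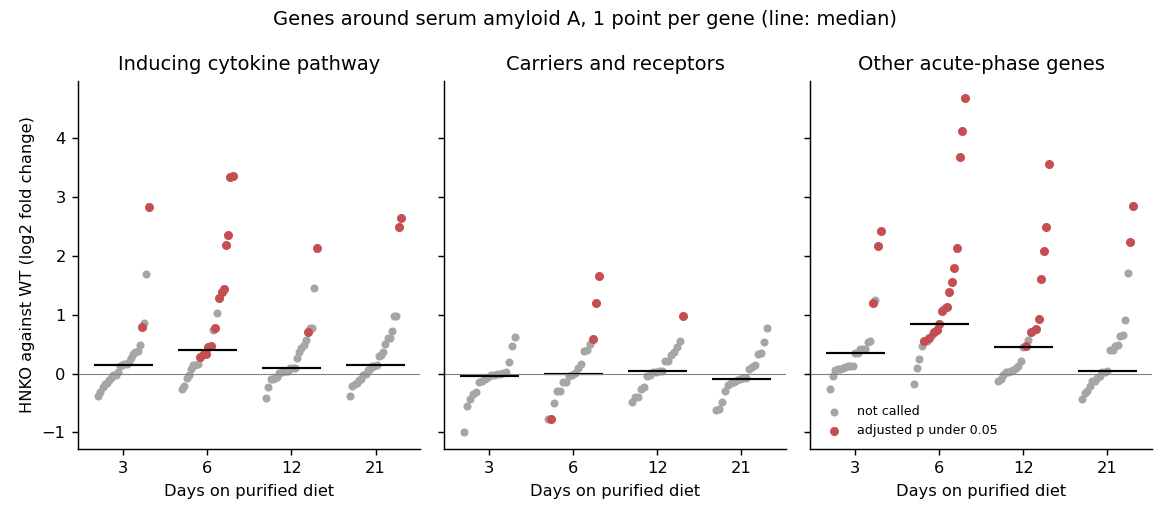
Log2 fold change of HNKO against WT (y axis) by days on purified diet (x axis) for the tested genes of the inducing cytokine pathways (24), the carriers and receptors of serum amyloid A (18), and other acute-phase genes (21), 1 point per gene, red where the adjusted p is under 0.05, with a line at the median. The red points are most numerous at day 6, 13 and 14 higher in the first and last panels.

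A further list held 19 genes for carriers, receptors, and clearance of serum amyloid A. Of these, 18 were tested, and 3 were higher and 1 lower at day 6, where 8.42% and 4.37% of all genes were (median log2 fold change -0.0063). Apcs, serum amyloid P component, which binds amyloid and is an acute-phase protein of the mouse, rose by 1.21 ± 0.22 (adjusted p = 0.000556), with all 5 HNKO libraries (7.69 to 8.06 log2 CPM) above the WT libraries (6.27 to 6.92). Tlr2, a receptor for serum amyloid A, rose by 1.67 ± 0.35 (0.00157), and Tlr4 was the other higher gene. Apoa2, an HDL apolipoprotein, fell by 0.77 ± 0.18 (0.00368). Apoa1, the main HDL apolipoprotein, had -0.14 ± 0.22 (0.732), and the HDL receptor gene Scarb1 had 0.0044 ± 0.15 (0.991). At day 12 Tlr2 was the one gene that edgeR called, 1 of 18 against 4.56% of all genes higher (0.97 ± 0.31, 0.0449), and it did not pass when HNKO library 11, 12, 13, or 35 or any of the 5 WT libraries was left out. DESeq2 called 1 higher and 1 lower gene at that day, and 2 in each direction had an unadjusted p under 0.05. No gene of this list passed edgeR's test at days 3 and 21. At an unadjusted p under 0.05, 2 genes passed as lower after 3 days and 2 in each direction after 21 days, and DESeq2 called 1 lower at day 3 and 0 at day 21.

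Of 21 other acute-phase genes, all tested, 3, 14, 8, and 2 were higher after 3, 6, 12, and 21 days, and 0 were lower on these days by edgeR, at an unadjusted p under 0.05, or with DESeq2. The share of all genes tested that were higher was 2.95%, 8.42%, 4.56%, and 2.21%. Their median log2 fold changes were 0.34, 0.84, 0.46, and 0.040, against 0.013, -0.014, 0.0021, and -0.013 over all genes. Lrg1, a secreted leucine-rich glycoprotein, had the smallest p at the first 3 time points, with 1.19 ± 0.24 (adjusted p = 0.00454), 2.14 ± 0.27 (6.75e-06), and 1.61 ± 0.24 (0.000158). Lcn2 had the smallest p at day 21 (2.85 ± 0.62, 0.00981). Orm2 reached 4.12 ± 0.63 at day 6 (8.02e-05), near the 4.11 of Saa3. Crp, a minor acute-phase protein in mice, had 0.10 ± 0.15 at day 6 (0.725). The day 21 count was 1 without WT library 19 and 0 without HNKO library 37, and 5 with only the libraries of that day.

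Markers of hepatocytes and of other cells were followed on the same days. The background share of higher genes on the 4 days was 2.95%, 8.42%, 4.56%, and 2.21%. Of 8 neutrophil markers, 5 passed the filter on low counts and 5 were higher at day 6, among them Csf3r (2.09 ± 0.33, adjusted p = 9.47e-05). Low counts limit this, as Retnlg and Cxcr2 had medians of only 2 and 7 counts over the 38 libraries. The filter asks for enough counts in only part of the libraries, so a marker can pass through the HNKO libraries where it is high. The number higher among those tested is therefore partly set by the filter. Without HNKO library 7, 29, or 30, 4 markers were tested and 4 were higher, and with at least 10 counts required in every library Csf3r alone was tested. With no filter, 5 of the 8 were higher. Their summed level was 17.4 to 56.2 CPM in HNKO and 4.13 to 5.70 CPM in WT at that day. Ly6g was at 0 counts in 28 and Mpo in 26 of the 38 libraries. Of 9 macrophage markers, 3 were higher at day 6, with sums of 800 to 1159 CPM in HNKO and 627 to 793 CPM in WT, and the number was 1 without HNKO library 29 or WT library 28. The summed hepatocyte markers were 55330 to 99812 CPM in HNKO and 114947 to 130403 CPM in WT at day 6, and 2 of the 6 were lower (background 4.37%). At day 3 the sums were 65746 to 118859 and 115533 to 124697 CPM, and 0 of the 6 passed edgeR's test, whereas 2 were lower with DESeq2 and at an unadjusted p under 0.05. At days 12 and 21, 0 passed by either tool or at an unadjusted p under 0.05. Of 5 ductal markers, 4, 4, 3, and 2 were higher on the 4 days in turn. Of 5 adipocyte markers, 4 were tested and 0 passed at any day, with 3 lower at day 3 and 1 higher at day 12 at an unadjusted p under 0.05, and 1 lower at day 3 with DESeq2. On days 3, 12, and 21, 0, 2, and 1 of the 5 neutrophil markers and 0, 1, and 1 of the 9 macrophage markers were higher by edgeR, against 1, 4, and 2 and 0, 7, and 2 at an unadjusted p under 0.05 and 0, 3, and 1 and 0, 3, and 1 with DESeq2. Without 1 library, the day 12 counts were 0 to 3 and 0 to 6, and the day 21 counts were 0 to 1 and 0 to 1. The part of these cells in the Saa1, Saa2, and Saa3 values was not tested.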

How the data were processed

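Liver RNA of 40 mice was sequenced after rRNA depletion with 51-base paired-end reads. The authors aligned reads to GRCm38 with STAR 2.7.2b and counted fragments on GENCODE M22 genes with featureCounts 1.6.4, and they deposited raw counts per gene, without normalization. The strand setting and the handling of reads that fit several genes are not given in the sources used here. The table had 0 columns of no mapped sample.

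Samples were grouped by the genotype and day in the labels. Genes were filtered with edgeR (minimum count 10, minimum total count 15, minimum proportion 0.7), scaled with TMM factors, and modeled as group means in edgeR 4.0.16 (R 4.3.3, quasi-likelihood, older computation), with Benjamini-Hochberg adjusted p-values over 20297 genes and a threshold of 0.05. SEs are those the test statistic implies. Log2 CPM used a prior count of 2. The members, the gene lists, and the tests were chosen with earlier results of these data known. Named genes are the 4 members, Nampt, per list and day the called gene with the smallest p in each direction, genes whose role describes a list, and the 4 genes outside the family most correlated with each member. A few further genes (Tlr4, Csf3r, Lcn2, and Orm2 at day 12, and the marker genes) were named after their values were seen.

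Depth (16151037 to 64181492 counts) and 3 to 6 mice per group set the precision. Permutation tests used numpy 2.4.6 and sequence alignment biopython 1.88. Pooled correlations over all 38 libraries or all HNKO libraries were planned but are not given as tests, because the HNKO libraries of day 12 fall into separate clusters. The tests were checked on simulated data with 200 genes changed by a log2 fold change of 2, where edgeR recovered 87.5% of them for HNKO against WT at day 6, 92.0% for the day effect in HNKO, and 97.0% for that in WT, on 19873 genes. Of its calls there, 3.31%, 5.64%, and 7.18% were genes that had not been changed, against 9.69%, 12.8%, and 16.5% with DESeq2. Alternatives were DESeq2 size factors, DESeq2 1.42.0, no filter, a filter of 10 counts in every library, all 40 libraries, fits of fewer groups, edgeR 4 computation, robust estimation, a term for the library series, and fits without each library in turn. The length of all joined exons and the HNKO correlations without day 12 were added after seeing the data. Protein sequences were not used here.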

Additional observations from a re-analysis of the deposited data

Results flagged for a closer look

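Of 28 sets of values tested for a sample far from the others (4 genes in groups of 4 to 6 libraries), 1 stood out, and about 1 in 20 would by chance. It was Saa3 in HNKO library 4 of day 3, at 0.94 log2 CPM, where the other 4 HNKO libraries of that day lay between 1.88 and 2.04.

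The HNKO libraries of day 21 that failed quality control entered only the recomputation with all 40 libraries. In library 18, Saa1 was at 6.09, Saa2 at 5.38, and Saa3 at 2.23 log2 CPM, each above every WT library of that day. In library 17, Saa1 was at 4.41 and Saa2 at 3.32 log2 CPM, within the WT ranges, and Saa3 had 0 counts.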

How the results depend on the processing

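The differences of the 4 genes between HNKO and WT were recomputed under 9 alternatives each. All but 1 of these values moved by less than the spread between mice. The exception was Saa4 at day 21, at -0.11 with the library series as a covariate. No sign changed under these alternatives. Leaving out 1 library gave 1.90 to 2.74, 5.47 to 5.84, 3.53 to 4.02, and 0.79 to 1.37 for Saa1 at days 3, 6, 12, and 21, 1.88 to 2.68, 5.75 to 6.24, 3.80 to 4.36, and 1.08 to 1.74 for Saa2, 0.081 to 0.32, 3.81 to 4.35, 1.67 to 2.31, and 0.66 to 1.34 for Saa3, and -0.37 to 0.071 and -0.081 to 0.35 for Saa4 at days 3 and 12 (0.35 to 0.80 and -0.57 to -0.27 at days 6 and 21). Of 72 recomputed day effects, 71 stayed on their side of the threshold, and Saa2 in WT passed (0.0454) with only the WT groups fitted.

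The list counts depended more on the settings. For the inducing pathways, the number of higher genes at day 3 was 1 with 10 counts in every library or with all 40 libraries and 0 with the groups of the day alone, that at day 6 was 7 with the groups of the day alone, and that at day 21 was 0 without a filter, with 10 counts in every library, with all 40 libraries, with the groups of the day alone, and with the series covariate. For the carriers, the number at day 12 was 0 without a filter, with all 40 libraries, and with the groups of the day alone, and the number at day 21 was 1 with the groups of the day alone. For the acute-phase genes, the number at day 12 was 5 with the groups of the day alone, and at day 21 it was 4 with DESeq2 or 10 counts in every library and 5 with all 40 libraries, the groups of the day alone, or the series covariate. Without 1 library, the counts were 0 to 2 (day 3), 8 to 14 (day 6), 1 to 3 (day 12), and 0 to 2 (day 21) for the inducing pathways, 0 to 1 at day 12 for the carriers, and 0 to 3 at day 21 for the acute-phase genes. The cause was not tested.

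With all 40 libraries, r of Saa1 and Saa3 in HNKO turned to 0.31. Without 1 library it was -0.19 to 0.26, that of Saa2 and Saa3 was -0.18 to 0.48, and that of Saa3 and Saa4 was -0.67 to -0.43 (0.31 to 0.47 in WT). No paired analysis was possible because library numbers are unique and the groups share none. The 3 HNKO mice of day 21 limit the precision there, and Saa3 in WT had only 1.25 to 4.55 CPM on days 12 and 21.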
